A study of Mus musculus with 19 samples.

Results

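The proteasome genes described here are the 50 of 24982 genes in the RNAseq count table whose symbols begin with Psma, Psmb, Psmc, Psmd, Psme, Psmf or Psmg, chosen by symbol and not by level. They were measured in CD4+FoxP3-GFP+ regulatory T cells (Tregs) sorted by FACS into CD44high and CD44low cells from the injury-site draining lymph nodes of Foxp3DTR mice, 7 days after a burn or a sham procedure. These mice carry a diphtheria toxin receptor and green fluorescent protein under the control of Foxp3, no toxin is named for these samples, and the methods give an age of 8 to 16 weeks. The uninjured mice gave 4 CD44high and 5 CD44low libraries (numbered 2 to 5 and 1 to 5), and the injured mice gave 4 CD44high libraries (2 to 5) and 6 CD44low libraries (1, 2, 5, 1_2, 4_2 and 5_2). RNA came from 50000 cells per sample and was amplified as full-length cDNA. The labels do not say whether a sample was 1 mouse or a pool, nor what the second number in 1_2, 4_2 and 5_2 stands for, so p-values measure the spread between these libraries, which may be technical.

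The proteasome is the protease that degrades ubiquitin-tagged proteins. Its barrel, the 20S core, is built from rings of alpha subunits (Psma genes) that gate the channel and rings of beta subunits (Psmb genes) that hold the active sites, and the 19S regulator docks on it with a ring of ATPases (Psmc genes) that unfold the substrate and non-ATPase subunits (Psmd genes) that bind and remove ubiquitin. Lymphocytes replace the constitutive catalytic subunits Psmb6, Psmb7 and Psmb5 by Psmb9, Psmb10 and Psmb8 to form the immunoproteasome, which together with the PA28 activator (Psme1 and Psme2) favours peptides suited to MHC class I. Interferon-gamma is the classical inducer of these genes, and the transcription factor Nfe2l1 raises the whole set when proteasome activity falls.

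Promoter windows from RefSeq (GRCm38.p6), 250 bases before the annotated start, matched 42 of the 50 members. The stretches of 3 of them are shown up to the first annotated exon. Psmb5 and Psmb6 are constitutive catalytic subunits with a match to the antioxidant response element that Nfe2l1 binds, and Psmc1 is a member that stood higher in 3 of the 4 comparisons below. Capitals mark the match (TGACNNNGC in Psmb5 and Psmb6, CCAAT in Psmc1), and both strands were searched. Psmb5 lies on the minus strand at chr14:54618023-54618245, Psmb6 on the plus strand at chr11:70525107-70525356 and Psmc1 on the plus strand at chr12:100109952-100110153.
Psmb5: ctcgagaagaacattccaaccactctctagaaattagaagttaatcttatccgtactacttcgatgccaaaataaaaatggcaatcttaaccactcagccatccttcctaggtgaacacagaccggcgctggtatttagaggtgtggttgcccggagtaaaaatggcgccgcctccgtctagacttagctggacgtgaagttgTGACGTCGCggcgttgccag
Psmb6: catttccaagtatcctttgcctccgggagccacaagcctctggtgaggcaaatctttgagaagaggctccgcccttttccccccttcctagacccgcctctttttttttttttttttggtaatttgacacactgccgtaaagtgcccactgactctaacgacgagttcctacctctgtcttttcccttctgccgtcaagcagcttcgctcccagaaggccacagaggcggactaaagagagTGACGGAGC
Psmc1: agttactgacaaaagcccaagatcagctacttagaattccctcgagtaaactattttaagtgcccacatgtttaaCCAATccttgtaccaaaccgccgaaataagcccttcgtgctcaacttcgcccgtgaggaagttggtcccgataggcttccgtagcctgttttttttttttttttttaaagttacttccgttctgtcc

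The antioxidant response element letters were found before 5 of 42 members (Psmb5, Psmb6, Psmc6, Psmd9 and Psmd12), or 11.9%, against 11.5% of the 27025 genes with a window. CCAAT was found before 15 members (35.7%, against 37.5% of all genes). The core of the interferon-stimulated response element, GAAA repeated after a gap of 2 bases, was found before Psmb3, Psmd4 and Psmd9, or 7.14% against 3.46%. TTCNNNGAA, the gamma-activated site bound by STAT factors, was found before Psmb8 and Psmg1, or 4.76% against 8.13%. The last 2 patterns can overlap by the letters GAA. A match describes the window and is not a binding site.

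Before the proteasome genes are compared, the sort can be read from its own markers. Cd44 stood between 541 and 626 CPM (counts scaled to library size with TMM factors) in the CD44high libraries of uninjured mice and between 111 and 155 CPM in the CD44low libraries, and between 369 and 496 CPM against 102 to 150 CPM in injured mice, so the groups did not overlap. Foxp3 was present in every library, at 47.6 to 181 CPM. Its level was 181 and 140 CPM in the injured CD44low libraries 4_2 and 5_2 and 65.4 to 82.8 CPM in the other 4 injured CD44low libraries, so these libraries stood apart from their group.

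Markers of other cells were not evenly spread. All 16 tested genes of a list for dividing cells were higher in CD44high Tregs in both injury states, with Mcm6 as the most abundant. Their summed level had a median of 3668 CPM in CD44high against 959 CPM in CD44low Tregs of uninjured mice, and 2764 against 1044 CPM in injured mice. Of the macrophage and dendritic cell markers, 7 of 7 were higher in CD44high Tregs of uninjured mice and 2 of 7 in injured mice. Lyz2 was the most abundant of them, and the median sums were 102, 28.9, 133 and 49.5 CPM in uninjured CD44high, uninjured CD44low, injured CD44high and injured CD44low Tregs, while Adgre1, Itgam, Itgax and Flt3 had a median of 0 in uninjured CD44low Tregs. The neutrophil markers had median sums of 0.083 and 0 CPM in uninjured CD44high and CD44low Tregs and 6.04 and 2.56 CPM after injury. Of the B cell markers 1 of 4 was higher in CD44high Tregs of uninjured mice, and none in injured mice. Of the plasma cell markers 1 of 2 tested (Sdc1) and of the CD8 and NK cell markers 1 of 4 (Klrb1c) were higher in CD44high Tregs in both injury states. Of the stroma and endothelium markers only Pecam1, lower in CD44high Tregs, and Col1a1, higher in them, passed the filter on low counts. Pecam1 was at 56.1 to 230 CPM over all libraries and Col1a1 at 0 to 3.22 CPM. Which cells Pecam1 came from, the Tregs included, was not tested. The part of these cells in the proteasome results was not tested, and fewer cells of a type and less RNA per cell cannot be told apart in bulk RNA.

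All 50 members together took 0.903% ± 0.025 of the library counts in uninjured CD44high Tregs (SD, n = 4), 0.835% ± 0.041 in uninjured CD44low Tregs (n = 5), 0.994% ± 0.089 in injured CD44high Tregs (n = 4) and 0.937% ± 0.098 in injured CD44low Tregs (n = 6). Every uninjured CD44high library (0.885%, 0.896%, 0.94% and 0.89%) lay above every uninjured CD44low library (0.769%, 0.829%, 0.854%, 0.845% and 0.878%). After injury the CD44high libraries held 0.906% to 1.11% and the CD44low libraries 0.801% to 1.102%, and the groups overlapped. The highest shares of all were in CD44high library 2 and CD44low library 1_2 of the injured mice. Library totals ran from 5582234 to 9433610 counts, so these shares rest on 48638 to 88688 proteasome counts per library.

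Per kilobase of transcript, Psmb8 was the most abundant member in all 4 groups, at 587 ± 47 CPM per kb in uninjured CD44high and 552 ± 40 in uninjured CD44low Tregs. The PA28 genes followed. In uninjured CD44high Tregs Psme2 stood at 454 ± 14 and Psme1 at 351 ± 22 CPM per kb, and in uninjured CD44low Tregs Psme1 (381 ± 30) and Psme2 (375 ± 39) did not differ beyond their spread. The alpha subunit Psma7 came next in each group, at 270 to 347 CPM per kb. At the low end were Psme4, the nuclear activator PA200, at 3.41 to 4.79 CPM per kb, and Psmc3ip, a recombination factor that shares the prefix but is not a subunit, at 3.06 to 7.51. Psmb11, the catalytic subunit of the thymic cortex, had 0 counts in all 19 libraries, and Psma8, the alpha subunit of the testis, had 0 to 6 counts per library. Neither passed the filter on low counts, and the other 48 members were tested.

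In uninjured mice, most of the called members were subunits of the 19S regulator, which were higher in CD44high than in CD44low Tregs, while the immunoproteasome gene Psmb10 was lower. Of the 48 members tested, 14 were higher (29.2%, against 24.7% of all 11464 genes tested) and 3 were lower (6.25%, against 21.3%) when called by the quasi-likelihood test of edgeR (Benjamini-Hochberg adjusted p below 0.05). The count of higher genes was thus near the background of this comparison and the count of lower genes was below it. The median log2 change of the members was 0.17, with 37 above and 11 below 0, beside 0.01 for all genes tested. By part, 7 of 11 non-ATPase subunits, 3 of 6 ATPases, 2 of 7 alpha subunits, 1 of 7 constitutive beta subunits and none of the 5 immunoproteasome genes were higher. Of the 7 assembly chaperones none was higher and 1 was lower, with a median of -0.27.

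**Figure D1:**
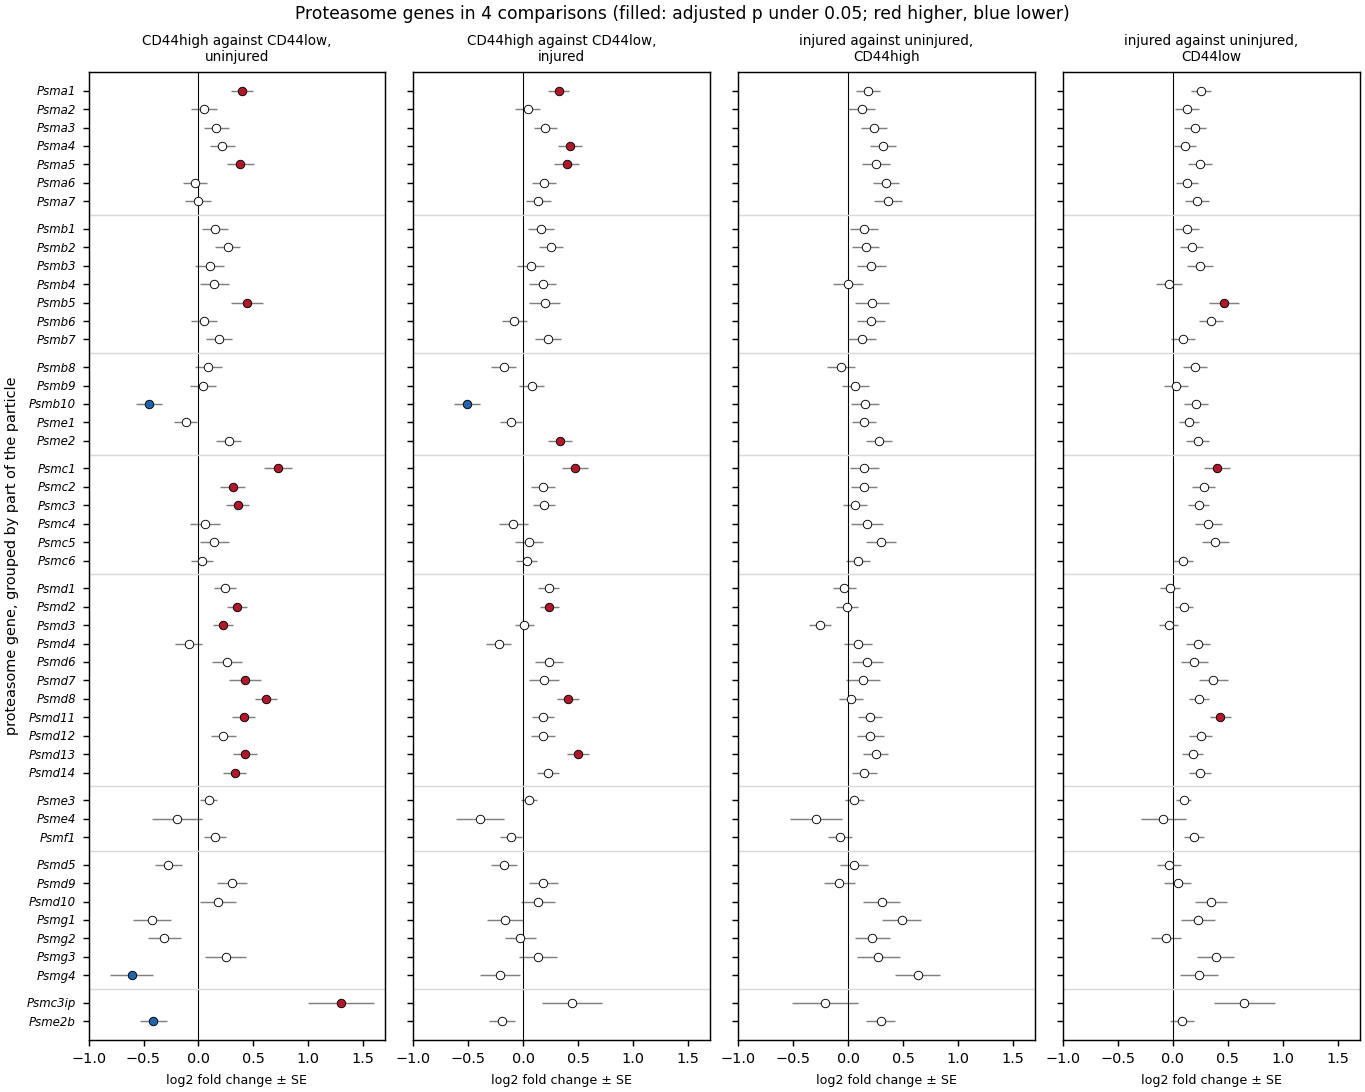
Log2 fold change (x axis, with SE) of each of the 48 tested proteasome genes, grouped on the y axis by part of the particle (from the top: alpha ring, constitutive beta ring, immunoproteasome, ATPases, non-ATPase subunits, other activators and inhibitor, assembly chaperones, genes outside the particle), in 4 comparisons. Filled points passed an adjusted p under 0.05: 14 higher and 3 lower in the first panel, 8 and 1 in the second, none in the third and 3 higher in the last.

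Psmc1, the ATPase whose tail helps to open the core gate, was at 179, 168, 183 and 169 CPM in the CD44high libraries and at 119, 115, 95.6, 104 and 94.4 CPM in the CD44low libraries of uninjured mice. The groups lay well apart, with a log2 change of 0.73 ± 0.13 (SE, adjusted p = 5.5e-05, edgeR). Psmd8, a non-ATPase subunit of the 19S lid, was at 283, 245, 284 and 287 CPM against 155, 185, 199, 179 and 180 CPM. It had the smallest p of the members, with a log2 change of 0.62 ± 0.10 (adjusted p = 3.8e-05, edgeR). Psmd11, another lid subunit, was at 175, 177, 169 and 183 CPM against 139, 116, 138, 136 and 133 CPM, again without overlap, with a log2 change of 0.41 ± 0.10 (adjusted p = 0.0025, edgeR). Psmc3ip was at 8.37, 6.44, 13.2 and 10.8 CPM against 3.44, 3.15, 3.12, 4.45 and 5.57 CPM, and at a log2 change of 1.30 ± 0.30 (adjusted p = 0.001, edgeR) it was the one member that changed by more than 2-fold. The remaining 10 higher members were Psmd13, Psmd2, Psmd7, Psmd14, Psmd3, Psmc2, Psmc3, Psma1, Psma5 and Psmb5, with log2 changes from 0.23 to 0.44.

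Of the 14 higher genes, 9 passed in each of the 30 alternative analyses run on single genes. The other 5 did not. Psmb5 missed without uninjured CD44high library 3 or CD44low library 1 (adjusted p = 0.077 and 0.055), Psmd14 without CD44high library 2 (0.065), Psmd7 without CD44high library 5 or CD44low library 1 or 4 (0.052 to 0.058), Psmc2 without CD44high library 3 or 4 or CD44low library 1 or 4 (0.057 to 0.074), and Psmd3, at 0.048 in the full data, in 19 of the alternatives. Psmc2 and Psmd14 also missed with the length trend taken out (0.139 and 0.071), and Psmc2 with library totals in place of TMM factors (0.051). In every comparison the alternatives included leaving out each of the 19 libraries in turn. Libraries outside the compared groups act only through the shared spread, filter and scaling, so passing without them adds little.

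The 3 members that were lower in CD44high Tregs of uninjured mice were Psmb10, Psmg4 and Psme2b. Psmg4, a chaperone that helps the alpha ring to form, was at 10.2, 15.4, 13.8 and 16.7 CPM in CD44high and at 15.6, 22.04, 21.7, 29.0 and 18.9 CPM in CD44low Tregs. The groups overlapped, the log2 change was -0.61 ± 0.20 (adjusted p = 0.014, edgeR), and without CD44high library 2 the change no longer passed (-0.50, adjusted p = 0.053). The other chaperones of the alpha ring, Psmg1, Psmg2 and Psmg3, had log2 changes of -0.42, -0.31 and 0.25, and those of the 19S base, Psmd5, Psmd9 and Psmd10, had -0.27, 0.31 and 0.18, none past the threshold. Psme2b, an intronless copy of Psme2, was at 25.1, 21.2, 23.2 and 21.6 CPM against 28.7, 30.9, 33.5, 31.4 and 26.6 CPM (log2 change -0.41 ± 0.13, adjusted p = 0.01, edgeR). It is nearly identical to Psme2, for which the change was 0.28, and reads may have been split between them, so its value is uncertain. The number of lower members was 5 without uninjured CD44high library 3, uninjured CD44low library 1 or injured CD44high library 2, where 2233, 2315 and 2580 of all genes were lower, against 2443. Injured CD44high library 2 is outside this comparison and acts on it only through the joint fit. The alternative activators Psme3 and Psme4 and the inhibitor Psmf1 had changes of 0.09, -0.19 and 0.15 and did not pass.

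In injured mice the same contrast between the subsets gave fewer called genes. Of the 48 members, 8 were higher in CD44high Tregs (16.7%, against 20.1% of all genes) and 1 was lower (2.08%, against 17.2%), and the median log2 change was 0.17, with 35 above and 13 below 0, beside 0.00 for all genes. The median was 0.057 without CD44high library 2 (28 above and 20 below 0), 0.105 without CD44low library 5_2 and 0.080 with libraries 1_2, 4_2 and 5_2 alone as the injured CD44low group. Other settings raised the median, to 0.214 without CD44low library 1_2 and 0.210 without CD44high library 3. With a block on the library number within injury state it was 0.265 (39 above and 9 below 0). Those higher were Psmd13, Psmd8, Psmd2, Psmc1, Psma4, Psma5, Psma1 and Psme2, and Psmb10 was the lower one. By part, 3 of 11 non-ATPase subunits, 3 of 7 alpha subunits, 1 of 6 ATPases, 1 of 5 immunoproteasome genes and none of the 7 constitutive beta subunits or 7 assembly chaperones were higher.

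Psmd13, a lid subunit, was at 225, 177, 186 and 219 CPM in the CD44high libraries of injured mice and at 111 to 160 CPM, with a median of 148 CPM, in the CD44low libraries. The groups did not overlap, and the log2 change was 0.50 ± 0.10 (adjusted p = 0.0005, edgeR). Psmd8 was at 311, 250, 264 and 298 CPM against 180 to 251 CPM (median 210), which met at the edge of both ranges (log2 change 0.41 ± 0.10, adjusted p = 0.0024, edgeR). Psma4, an alpha subunit, was at 221, 191, 178 and 215 CPM against 130 to 189 CPM (median 147), with overlap between the lowest and the highest library (log2 change 0.42 ± 0.11, adjusted p = 0.0031, edgeR). Psmc1 was at 242, 162, 189 and 182 CPM against 106 to 163 CPM (median 144), and CD44high library 3 fell within the CD44low range (log2 change 0.47 ± 0.12, adjusted p = 0.0033, edgeR). These 4 genes passed in each of the 30 alternatives.

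The number of higher members in injured mice moved with single libraries. It was 5 without CD44high library 2 and 14 without CD44low library 1_2, the libraries with the highest proteasome share of their groups, while 1999 and 2398 of all genes were then higher, against 2306 with all libraries. The number of lower members was 2 without CD44high library 2, with 1746 of all genes lower against 1976. That of higher members was 13 when libraries 1_2, 4_2 and 5_2 were left out, with 2109 of all genes higher. Psma1 did not pass without CD44high library 2 (adjusted p = 0.094, edgeR) and Psmd2 did not pass in 21 of 30 alternatives. Psma1 and Psma5 did not pass with libraries 1_2, 4_2 and 5_2 alone as the injured CD44low group (adjusted p = 0.069 and 0.077). Psmd8, Psmd13, Psmd2, Psmc1, Psma1 and Psma5 were called higher in CD44high Tregs in both injury states and Psmb10 lower in both. The contrasts of the subsets and those of injury share their libraries, so they are given side by side. The difference between the injured and the uninjured contrast was past the threshold for none of the 48 members, as given below.

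**Figure D2:**
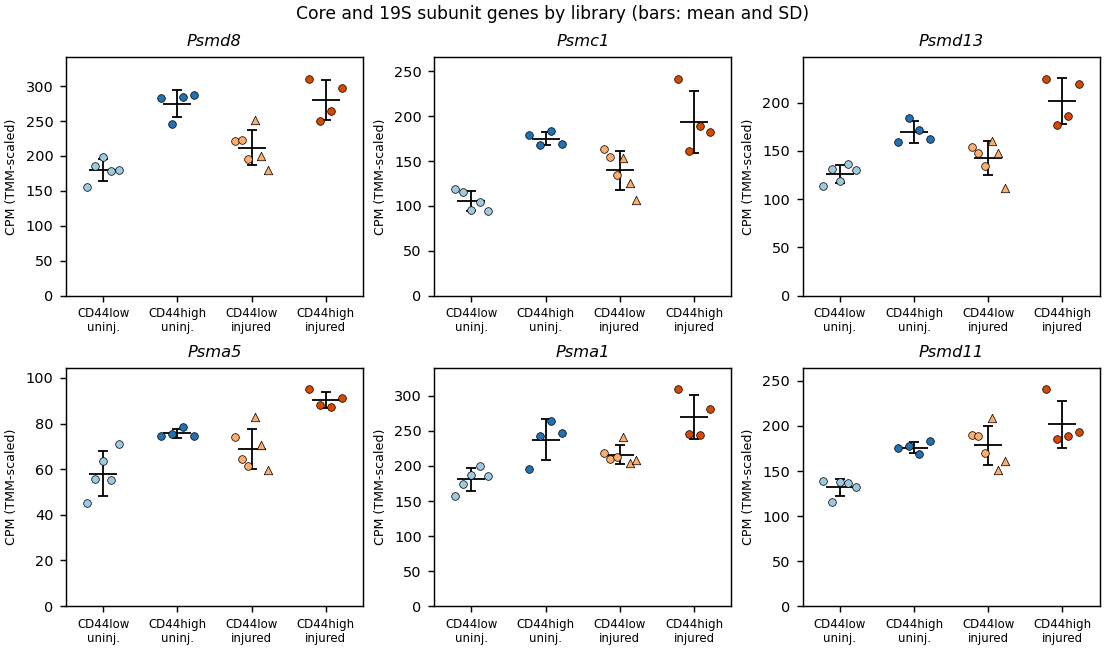
Level of 6 core and 19S genes in each library (y axis, TMM-scaled CPM from 0; x axis, the 4 groups; points are libraries, triangles the injured CD44low libraries 1_2, 4_2 and 5_2, bars the mean and SD). In uninjured mice the CD44high libraries of Psmd8 (245 to 287 CPM) and Psmc1 (168 to 183 CPM) lie above all CD44low libraries (155 to 199 and 94.4 to 119 CPM).

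The one immunoproteasome gene called in both injury states was Psmb10, while the sum over these genes was similar in the subsets of uninjured mice. The summed level of Psmb8, Psmb9, Psmb10, Psme1 and Psme2 had a median of 2226 CPM in uninjured CD44high and 2223 CPM in uninjured CD44low Tregs, and 2282 against 2438 CPM in injured mice. Psmb10, the trypsin-like subunit of the immunoproteasome, was at 178, 201, 184 and 161 CPM in CD44high and at 234, 242, 259, 229 and 272 CPM in CD44low Tregs of uninjured mice. The groups did not overlap (log2 change -0.45 ± 0.12, adjusted p = 0.0042, edgeR). After injury Psmb10 was at 234, 186, 194 and 190 CPM in CD44high and at 227 to 385 CPM (median 278) in CD44low Tregs. CD44high library 2 alone reached into the CD44low range, and the log2 change was -0.51 ± 0.12 (adjusted p = 0.0014, edgeR). Over the 30 alternatives the change lay between -0.59 and -0.41 in uninjured and between -0.61 and -0.37 in injured mice and passed in each.

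Psmb7, the constitutive subunit that Psmb10 replaces, was at 80.9, 82.8, 90.0 and 89.5 CPM against 58.9, 69.7, 82.0, 84.6 and 81.3 CPM in uninjured mice. The groups overlapped (log2 change 0.19 ± 0.12, adjusted p = 0.21, edgeR). In injured mice it was at 89.9, 99.4, 87.2 and 97.9 CPM against 69.0 to 98.8 CPM (median 77.1), with a log2 change of 0.22 ± 0.12 (adjusted p = 0.13, edgeR). Without libraries 1_2, 4_2 and 5_2 this change was 0.36 and passed (adjusted p = 0.027).

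The ratio of Psmb10 to Psmb7 counts within a library does not depend on library scaling. It was 2.20, 2.42, 2.04 and 1.80 in uninjured CD44high and 3.98, 3.47, 3.16, 2.71 and 3.34 in uninjured CD44low Tregs, and 2.61, 1.87, 2.22 and 1.94 in injured CD44high and 2.83 to 4.36 (median 3.73) in injured CD44low Tregs. Every CD44high library lay below every CD44low library in both injury states. The log2 ratio was lower in CD44high Tregs by a difference of -0.65 in uninjured and -0.73 in injured mice, and it differed by 0.03 and 0.10 between injured and uninjured mice in CD44high and CD44low Tregs. These ratios are given as descriptions with no test.

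Psmb8, the chymotrypsin-like subunit of the immunoproteasome, was at 908, 1068, 941 and 908 CPM in CD44high and at 831, 837, 943, 898 and 981 CPM in CD44low Tregs of uninjured mice. After injury Psmb8 was at 1090, 805, 910 and 849 CPM against 838 to 1425 CPM (median 993). The groups overlapped in both states, with log2 changes of 0.09 ± 0.12 (adjusted p = 0.57) and -0.18 ± 0.12 (adjusted p = 0.24, edgeR). The constitutive partner Psmb5 was at 62.3, 73.9, 63.7 and 58.4 CPM in uninjured CD44high and at 38.1, 49.0, 48.4, 44.1 and 58.0 CPM in uninjured CD44low Tregs. The ranges met without crossing, and the log2 change of 0.44 ± 0.15 passed (adjusted p = 0.018, edgeR). In injured mice Psmb5 was at 86.6, 68.9, 68.3 and 77.0 CPM against 46.3 to 86.6 CPM (median 66.5), and the change of 0.19 ± 0.14 did not pass (adjusted p = 0.30, edgeR).

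The ratio of Psmb8 to Psmb5 counts was 14.5, 14.4, 14.8 and 15.5 in uninjured CD44high and 21.8, 17.1, 19.5, 20.3 and 16.9 in uninjured CD44low Tregs. After injury it was 12.6, 11.7, 13.3 and 11.02 in CD44high and 14.2 to 18.1 (median 15.6) in CD44low Tregs. In both injury states every CD44high library lay below every CD44low library, and every injured CD44high library lay below every uninjured CD44high library. The ranges of injured and uninjured CD44low libraries overlapped. The differences in log2 ratio were -0.36 and -0.38 between the subsets in uninjured and injured mice and -0.29 and -0.27 for injury in CD44high and CD44low Tregs.

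**Figure D3:**
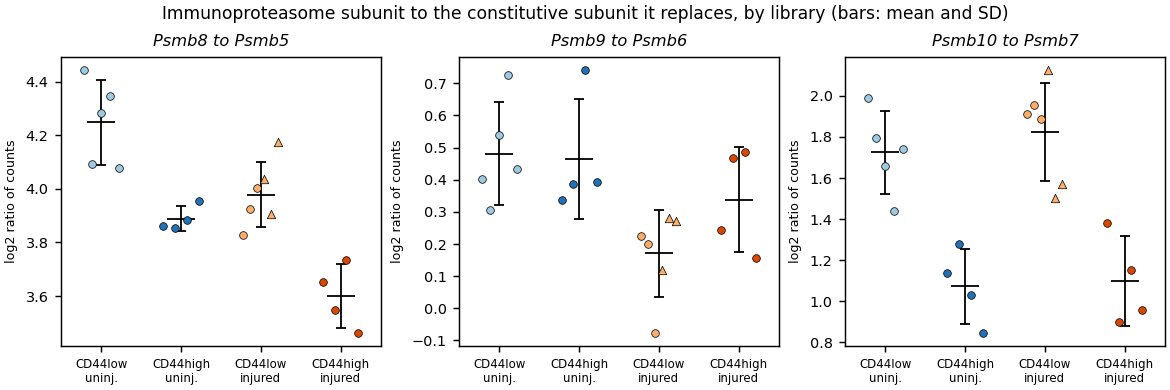
Log2 ratio of counts (y axis, not starting at 0) of each immunoproteasome subunit to the constitutive subunit it replaces, in each library of the 4 groups (x axis; points are libraries, triangles libraries 1_2, 4_2 and 5_2, bars the mean and SD). For Psmb8 to Psmb5 and for Psmb10 to Psmb7 the CD44high libraries lie below the CD44low libraries of the same injury state, and for Psmb9 to Psmb6 the subsets overlap.

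Psmb9, the immunoproteasome subunit that takes the place of the caspase-like Psmb6, was at 233, 254, 305 and 248 CPM in CD44high and at 227, 228, 270, 278 and 264 CPM in CD44low Tregs of uninjured mice. After injury Psmb9 was at 310, 244, 279 and 258 CPM against 214 to 327 CPM (median 257). The groups overlapped, and the log2 changes of 0.04 ± 0.12 and 0.08 ± 0.11 were within the spread (adjusted p = 0.81 and 0.63, edgeR). Its partner Psmb6 was at 185, 194, 183 and 189 CPM against 172, 184, 186, 168 and 195 CPM in uninjured mice (log2 change 0.05 ± 0.12) and at 261, 176, 200 and 231 CPM against 184 to 301 CPM (median 225) in injured mice (log2 change -0.08 ± 0.12), and did not pass in either state (adjusted p = 0.75 and 0.61, edgeR). Their ratio had geometric means of 1.38 and 1.40 in uninjured CD44high and CD44low Tregs and 1.26 and 1.13 in injured ones, and the ranges of the subsets overlapped in both states. Every injured CD44low library (0.948 to 1.22) lay below every uninjured one (1.24 to 1.65).

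The PA28 genes Psme2 and Psme1 had log2 changes of opposite sign between the subsets. Psme2 was at 435, 425, 456 and 432 CPM in CD44high and at 306, 340, 401, 384 and 373 CPM in CD44low Tregs of uninjured mice. The groups did not overlap, but the log2 change of 0.28 ± 0.11 stayed just outside the threshold (adjusted p = 0.052, edgeR). It passed in 10 of 30 alternatives, among them DESeq2 (adjusted p = 0.043), the compared groups alone (0.0090), the length trend taken out (0.027), libraries 1_2, 4_2 and 5_2 left out (0.013), and without uninjured CD44low library 3, injured CD44high library 2 or injured CD44low library 1_2 or 5_2 (0.020 to 0.048). In injured mice Psme2 was at 620, 480, 481 and 542 CPM against 343 to 552 CPM (median 412), and the log2 change of 0.33 ± 0.11 passed (adjusted p = 0.02, edgeR). That call was lost in 5 of 30 alternatives, among them without CD44high library 2 (0.23, adjusted p = 0.13), CD44high library 5 (adjusted p = 0.0502) or CD44low library 5_2 (adjusted p = 0.056). Psme1 was at 379, 369, 424 and 391 CPM against 365, 434, 446, 435 and 437 CPM in uninjured mice and at 468, 402, 419 and 442 CPM against 376 to 567 CPM (median 468) in injured mice. Its ranges overlapped, with log2 changes of -0.11 ± 0.10 in both states (adjusted p = 0.38 and 0.39, edgeR).

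**Figure D4:**
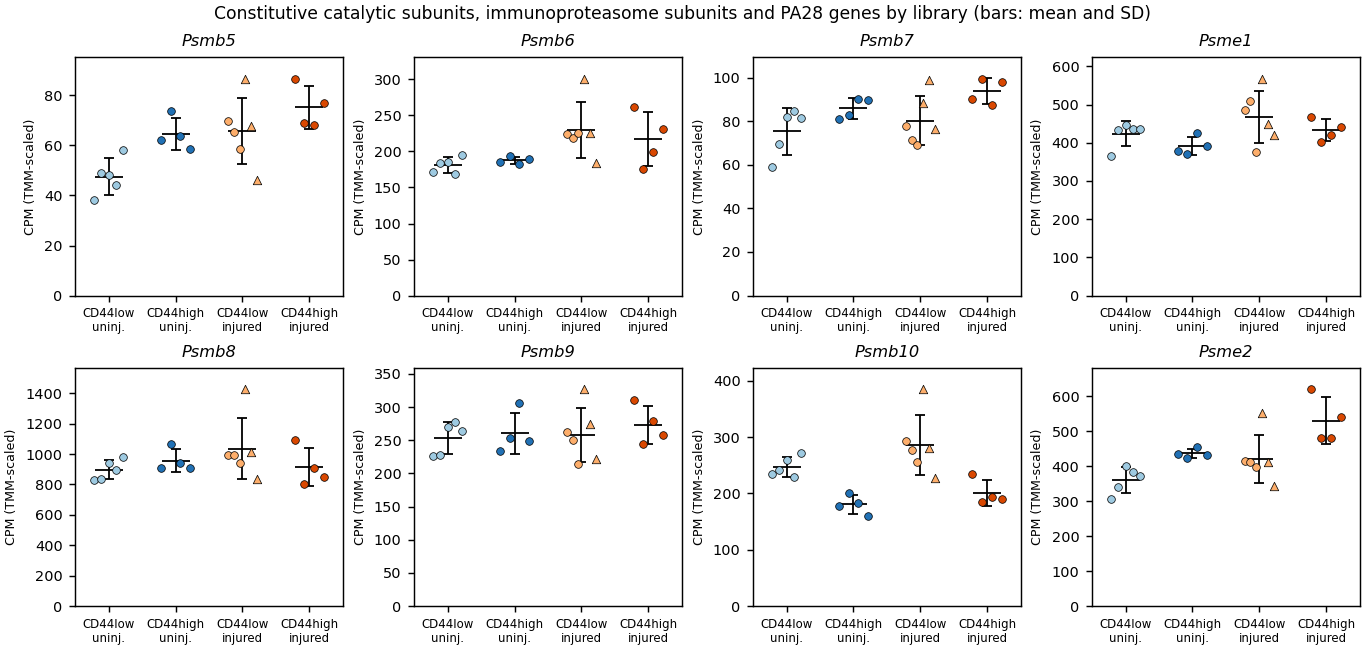
Level of the constitutive catalytic subunits, the immunoproteasome subunits and the PA28 genes in each library (y axis, TMM-scaled CPM from 0; x axis, the 4 groups; points are libraries, triangles libraries 1_2, 4_2 and 5_2, bars the mean and SD). Psmb10 is lower in CD44high Tregs (161 to 201 CPM uninjured) than in CD44low Tregs (229 to 272 CPM), Psmb5 shows the opposite order in uninjured mice, and Psmb8, Psmb9, Psmb6 and Psme1 overlap.

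In CD44high Tregs none of the 48 members was called higher or lower after injury by edgeR (0%, against 1.06% and 1.33% of all genes), none was called by DESeq2 either, and 10 had an unadjusted p under 0.05 (20.8%, against 15.1% of all genes). The median log2 change was 0.15, with 39 above and 9 below 0, beside -0.02 for all genes, and it was 0.095 without injured CD44high library 2. The smallest p belonged to Psmg4, which was at 23.1, 18.6, 19.7 and 26.0 CPM in injured and 10.2 to 16.7 CPM in uninjured mice (log2 change 0.63 ± 0.20, adjusted p = 0.11, edgeR). Psme2, Psmb5, Psmb6, Psmb7 and Psmb10 had changes of 0.28, 0.22, 0.21, 0.13 and 0.15, and Psmb8 had -0.07. Fitting the CD44high libraries alone gave 2 higher members and leaving out libraries 1_2, 4_2 and 5_2 gave 3, with 278 and 269 of all genes higher against 121. Libraries 1_2, 4_2 and 5_2 are CD44low and act on this comparison only through the joint fit. Among the listed markers the neutrophil gene S100a9 rose (adjusted p = 0.0496, edgeR). Pecam1, whose source cells were not tested, rose by a log2 change of 0.69. All 16 genes of dividing cells had log2 changes below 0, with a median of -0.42, 1 of them called lower and 11 at an unadjusted p under 0.05. The part of these markers in the result was not tested.

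In CD44low Tregs 3 of 48 members were higher after injury (6.25%, against 4.24% of all genes) and none was lower (0%, against 3.36%) by edgeR, DESeq2 called 8 higher and none lower while it called 926 of all genes higher against 486 by edgeR, and 19 members had an unadjusted p under 0.05 (39.6%, against 26.0% of all genes). The median log2 change was 0.21, with 42 above and 6 below 0, beside 0.01 for all genes, and it was 0.133 without injured CD44low library 1_2. Psmd11 was at 152 to 209 CPM (median 179) in injured and at 139, 116, 138, 136 and 133 CPM in uninjured CD44low Tregs, without overlap. Its log2 change was 0.43 ± 0.10 (adjusted p = 0.0087, edgeR) and it passed in all 29 alternatives run. Psmc1 was at 106 to 163 CPM (median 144) against 119, 115, 95.6, 104 and 94.4 CPM, with overlap at the low end (log2 change 0.40 ± 0.12, adjusted p = 0.037, edgeR). Psmb5 was at 46.3 to 86.6 CPM (median 66.5) against 38.1 to 58.0 CPM, and library 5_2 lay within the uninjured range (log2 change 0.47 ± 0.14, adjusted p = 0.038, edgeR). Its fellow catalytic subunit Psmb6 came next (log2 change 0.34 ± 0.11, adjusted p = 0.053, edgeR). Psmb6 passed in part of the alternatives, DESeq2 among them, and missed in the others. The immunoproteasome genes Psmb8, Psmb9, Psmb10, Psme1 and Psme2 had changes of 0.20, 0.03, 0.21, 0.15 and 0.23, and none passed. Among the markers of other cells S100a9, Lyz2, Itgam and the NK cell gene Klrb1c and 3 of 16 genes of dividing cells also rose in CD44low Tregs after injury, and their part was not tested.

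The count of 3 higher members also moved with single libraries. It was 18 without injured CD44low library 5_2, 9 without injured CD44high library 2 and 7 without injured CD44low library 4_2. It was 6 without uninjured CD44high library 2, and 5 without uninjured CD44high library 3 or 5 or injured CD44high library 3. The CD44high libraries are outside this comparison and act on its count only through the shared spread, filter and scaling of the joint fit. It was 1 without injured CD44low library 1 or 1_2 or uninjured CD44low library 3 or 4. With libraries 1_2, 4_2 and 5_2 left out it was 9, and with these alone as the injured CD44low group it was 1. Calls over all genes moved too, from 486 higher genes to 1122 without library 5_2, 775 without injured CD44high library 2, 655 without 4_2, 303 without 1_2, 859 with 1_2, 4_2 and 5_2 left out and 303 with these alone. They were 608, 628 and 544 without uninjured CD44high library 2, 3 and 5, and 495 without injured CD44high library 3. Without injured CD44low library 1 they were 362, and without uninjured CD44low library 3 and 4 they were 404 and 429. Psmb5 was not called without uninjured CD44low library 1, 2, 3 or 4 or injured library 1 or 1_2 (adjusted p = 0.0502 to 0.092), nor Psmc1 without uninjured library 3, 4 or 5 or injured library 1, 2 or 1_2 (adjusted p = 0.053 to 0.073). Both also missed with the compared groups alone (0.081 and 0.069), with the length trend taken out (0.058 and 0.078) and with 1_2, 4_2 and 5_2 alone as the injured group (0.086 and 0.192). The mean of Psmd11 was 183 CPM over libraries 1, 2 and 5 and 174 CPM over libraries 1_2, 4_2 and 5_2, against 132 CPM in uninjured mice, and the means of Psmb5 were 64.6, 66.9 and 47.5 CPM.

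The effect of injury was compared between the subsets by an interaction term. None of the 48 members passed by edgeR or DESeq2 (0%, against 0.192% of all genes higher and 0.454% lower), and 1, Psmc3ip, had an unadjusted p under 0.05 (2.08%, against 10.9% of all genes, log2 difference -0.86 ± 0.41, adjusted p = 0.45, edgeR). For Psmb5, Psmd11 and Psmc1, called after injury in CD44low and not in CD44high Tregs, the differences were -0.25 ± 0.21, -0.23 ± 0.15 and -0.25 ± 0.18 (adjusted p = 0.72, 0.60 and 0.64), so a difference between the subsets was not shown. In the same contrast all 16 genes of dividing cells had differences below 0, with a median of -0.82 and 3 called lower, and their part was not tested.

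Over the 4 comparisons between groups 19 of 48 members were called at least once in either direction (39.6%, against 55.3% of all genes), a share below the background. The other 29 members were called in none, among them Psmb8, Psmb9, Psme1, 6 of 7 constitutive beta subunits, 6 of 7 assembly chaperones and all of Psme3, Psme4 and Psmf1. Of the 19S regulator, 7 of 11 non-ATPase subunits and 3 of 6 ATPases were called at least once, which is near that background.

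The members have shorter transcripts than most genes, with a median of 1435 bases against 2242 bases. When the dependence on transcript length was removed from every library, the median log2 change of the members was 0.08 between the subsets in uninjured and in injured mice and 0.08 and 0.10 for injury in CD44high and CD44low Tregs. The counts of higher members between the subsets were then 14 and 9, those of lower members 7 and 4, and that of members higher after injury in CD44low Tregs 1, where over all genes 2948 and 2428 were higher and 2332 and 2251 lower between the subsets and 507 were higher after injury. With the trend taken out Psme1 was lower in CD44high Tregs in both states (-0.22, adjusted p = 0.013, and -0.20, adjusted p = 0.025) and Psmb8 was lower in injured mice (-0.26, adjusted p = 0.012).

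Genes that work with the proteasome were read from 3 lists. Of 23 tested partners (assembly, shuttle, unfoldase and deubiquitinating factors and their regulators), 4 were higher and 7 lower in CD44high Tregs of uninjured mice (17.4% and 30.4%, against 24.7% and 21.3% of all genes), and 4 were higher and 4 lower in injured mice (17.4% each, against 20.1% and 17.2%). Their median log2 changes were -0.13 and -0.10. Pomp, which is needed for the core to mature, was higher in both states (log2 change 0.54 and 0.59, adjusted p = 0.0026 and 0.00094), as were Vcp, the unfoldase that hands substrates to the proteasome (0.41 and 0.24), and Zfand5, a proteasome-binding zinc finger protein (0.41 and 0.40). The shuttle factor Ubqln4 was lower in both (-0.98 and -1.07, adjusted p = 7.6e-05 and 2.2e-05), and Nfe2l2, a stress-responsive transcription factor, was lower in injured mice (-0.63, adjusted p = 0.00038). After injury none of the partners was called in CD44high Tregs by edgeR, with 2 at an unadjusted p under 0.05, and 2 of 23 were higher in CD44low Tregs (8.70%, against 4.24% of all genes), among them the deubiquitinase Uchl5 (0.40, adjusted p = 0.041).

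Of the 6 genes that supply and activate ubiquitin, 1 was higher and 2 were lower in CD44high Tregs of uninjured mice (16.7% and 33.3%, against 24.7% and 21.3% of all genes), and 1 was higher and 1 lower in injured mice (16.7% each, against 20.1% and 17.2%). Uba6, an alternative activating enzyme, was higher in CD44high Tregs in both states (0.69 and 0.70). Rps27a, which encodes ubiquitin fused to a ribosomal protein, was lower in uninjured mice (-1.12, adjusted p = 0.00022). None of the 6 was called after injury in either subset by edgeR, and 0 had an unadjusted p under 0.05. Of 14 genes of the interferon and MHC class I pathway, 3 were higher and 4 lower in CD44high Tregs of uninjured mice (21.4% and 28.6%), and 1 was higher and 2 lower in injured mice (7.14% and 14.3%), beside the same shares of all genes. The called shares of these short lists were not tested against those of all genes. Nlrc5, the transactivator of MHC class I genes, was lower in both (-1.80 and -1.31), as was Gbp2, an interferon-induced GTPase (-0.67 and -0.94). Tap1, a chain of the peptide transporter, and Gbp3 were higher in uninjured mice (0.43 and 0.58), and Isg15, an interferon-induced ubiquitin-like protein, was higher in injured mice (0.84). After injury Isg15 rose (1.23, adjusted p = 0.0082) and Gbp3 fell by 0.60 on the log2 scale (adjusted p = 0.0063) in CD44high Tregs, and none of the 14 was called in CD44low Tregs by edgeR, with 2 at an unadjusted p under 0.05.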

How the data were processed

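Bulk RNAseq of 19 sorted Treg samples was taken from the table of raw counts per gene that the authors deposited, without normalization and with replicates kept apart. RNA from 50000 cells was amplified with SMART-Seq v4, libraries were made with the Swift 2S kit, and the submitters' processing notes name STAR 2.5, bcl2fastq 2.18 and the builds mm9 and mm10 without saying which was used for the counts. Counts carry no molecular identifiers. Library totals were 5582234 to 9433610.

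Counts were analysed in R 4.3.3 with edgeR 4.0.16 (minimum count of 10, TMM factors, 1 mean per group without covariates, quasi-likelihood test, two-sided, Benjamini-Hochberg adjustment over 11464 genes, adjusted p under 0.05). DESeq2 1.42.0 was an alternative. Ratios used counts plus 0.5. Transcript lengths came from GENCODE vM21 and promoter windows from RefSeq. Figures used Python 3.11.15 and matplotlib 3.10.9. The steps were tested on simulated data. With edgeR, 15 to 29 of 100 genes given a log2 change of 0.5 were recovered in the 4 comparisons between groups. At a log2 change of 1 it was 60 to 70 of 100. For the interaction it was 5 and 48 of 100. Changes of the size of most members can thus go uncalled.

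The members and gene lists were chosen with earlier results of these data known. Values in every library were given for the exchanged catalytic subunits, their replacements and the PA28 genes. Up to 4 members of smallest adjusted p in each direction were named for each comparison, along with the chaperones, activators and retrocopies, and up to 4 genes of each pathway list. Alternatives changed the scaling, filter, tool, groups fitted, length trend and libraries, and some left out only libraries of groups outside the comparison. Some results of the pathway lists are not reported here, and other data types of the study were not analysed here.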

Additional observations from a re-analysis of the deposited data

Results flagged for a closer look

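Libraries were compared within each group of 4 to 6 for 18 genes, the proteasome share and 3 ratios, 88 sets of values in all, and 9 values stood apart by Dixon's criterion at 95%, which chance meets in about 1 of 20 groups. Injured CD44low library 1_2 was high for Psmb6 (300.9 CPM, with the next library at 225), Psmb8 (1425 CPM, next 1017) and Psme2 (551.6 CPM, next 415). Injured CD44high library 2 was high for Psmb10 (234.4 CPM, next 194) and Psmd11 (240.6 CPM, next 193). In uninjured mice CD44low library 1 was low for Psme1 (365 CPM, next 434), CD44low library 2 was low for Psmd11 (115.8 CPM, next 133) and CD44high library 3 was low for Psmd8 (245.4 CPM, next 283). The log2 ratio of Psmb9 to Psmb6 was high in uninjured CD44high library 4 (0.7404, next 0.39). Without CD44high library 2 the number of members higher in CD44high Tregs of injured mice was 5, and without CD44low library 1_2 it was 14, against 8 with all libraries. Of all genes 1999 and 2398 were then higher, against 2306.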

How the results depend on the processing

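The direction of Psmb10, Psmd8, Psmd13 and Psmc1 between the subsets, in both injury states, and of Psmd11 after injury in CD44low Tregs, and their place past the threshold, held in every alternative run for single genes. For the counts of members higher after injury in CD44low Tregs (3), DESeq2 gave 8, RLE factors 5 and no filter on low counts 5. The compared groups alone, libraries 1_2, 4_2 and 5_2 used alone, and the length trend taken out gave 1 each. Leaving out these 3 libraries gave 9. Of all genes 926 were higher with DESeq2 and 630 with RLE factors, against 486, and their number also rose without the filter. The number over all genes was 211 with the compared groups alone, 303 with the 3 libraries used alone and 507 with the length trend out. Without the 3 libraries it was 859. After injury in CD44high Tregs (0), the compared groups alone gave 2, summing libraries 1 with 1_2 and 5 with 5_2 gave 1, and leaving out 1_2, 4_2 and 5_2 gave 3. Of all genes 278, 199 and 269 were then higher, against 121. Members lower in uninjured CD44high Tregs (3) were 5 with the compared groups alone, with library totals or without the 3 libraries, and 7 with the length trend out. Of all genes 2676, 2677, 2673 and 2332 were then lower, in that order, against 2443. In injured mice the members lower (1) were 2 with the 3 libraries used alone and 4 with the length trend out. Of all genes 2146 and 2251 were then lower, against 1976. The members higher (8) were 13 without the 3 libraries, with 2109 of all genes higher, against 2306. With a 2-fold change also required, 1 member was higher in uninjured CD44high Tregs and 0 passed elsewhere, and at an unadjusted p under 1e-06 with a 2-fold change 0 passed. The shares of all genes at these thresholds are not given here, so these counts have no background beside them. Leaving out 1 library at a time gave 10 to 17 higher and 2 to 5 lower members in uninjured mice. It gave 5 to 14 higher and 1 to 2 lower in injured mice, and 1 to 18 higher after injury in CD44low Tregs. The 10 came without uninjured CD44low library 1 and the 17 without injured CD44low library 1_2. Of all genes 2662 and 2943 were then higher, against 2837. The proteasome share after division by transcript length was 1.29%, 1.24%, 1.40% and 1.35% in uninjured CD44high, uninjured CD44low, injured CD44high and injured CD44low Tregs.

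Nothing in the labels ties same-numbered libraries to each other. The correlation of their deviations from the group means was 0.167, 0.116, 0.101 and -0.054 between the subsets of injured mice (numbers 2, 5, 4 with 4_2 and 5 with 5_2), and 3 of 7 of these libraries correlated best with their own number. In uninjured mice it ran from -0.0068 to 0.119, with 4 of 8. A replicate block on the number within injury state moved the higher members in injured mice from 8 to 16 and the lower ones from 1 to 2. The lower ones in uninjured mice moved from 3 to 6. Of all genes 2196 were then higher (against 2306) and 2027 lower (against 1976) in injured mice. In uninjured mice 2377 were lower, against 2443. The median log2 change of the members in injured mice was 0.265 with this block, with 39 above and 9 below 0, against 0.169. A block on the number over all libraries left 2 members higher after injury in CD44low Tregs, where 217 of all genes were higher, against 486. Psmb5 then missed the threshold (adjusted p = 0.092, edgeR).

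Small log2 changes that had not passed turned sign. Psmb9 between the subsets of uninjured mice was -0.0055 with library totals, -0.00063 with the replicate block within injury state and -0.10 with the length trend out, and ran from -0.045 (without CD44high library 4) to 0.075 over single libraries left out, with -0.0048 and -0.0047 without CD44low library 1 and 2. In injured mice Psmb9 was -0.032 with the 3 libraries used alone and -0.0070 with the length trend out, and ran from -0.013 (without CD44high library 2) to 0.15. After injury Psmb9 was -0.018 in CD44high Tregs with the length trend out and, in CD44low Tregs, -0.062 without the 3 libraries, -0.12 with the length trend out and from -0.049 (without injured library 1_2) to 0.0997 (without injured library 5) over single libraries left out. Psmb8 was -0.068 between the uninjured subsets with the length trend out, and after injury in CD44high Tregs it ran from -0.15 (without injured library 2) to 0.0038 (without uninjured library 3). Psmb6 between the injured subsets was 0.096 with the block and ran from -0.21 (without CD44high library 2) to 0.0090 (without CD44low library 1_2). After injury in CD44low Tregs Psme1 was -0.0017 with the length trend out, and Psmb7 was -0.050 without the 3 libraries and -0.049 with the length trend out. The causes were not tested.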
